A study of Mus musculus with 4 samples.

Results

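The melanocyte genes measured in the embryonic mouse cochlea were Mitf, Kit, Ednrb, Tyr, Tyrp1, Dct, Pmel and Mlana. They were taken by Ensembl gene ID from a table of 23879 genes, and 8 of 8 IDs were found. RNA was profiled on microarrays from the whole cochlea, the hearing part of the inner ear, of embryos at embryonic day 15. The labels give 2 wild-type arrays and 2 arrays called N-myc ko, from embryos that were genotyped by PCR, and the strain is given for both groups as 129/Sv and CD-1. Which allele or Cre driver removed N-myc, a transcription factor of the MYC family, and whether embryos were pooled, are not stated in the sources used here. The N-myc transcript was not analysed here, so the labels were not checked against it. CD-1 is an albino stock with a mutation in Tyr, and the Tyr alleles of these embryos are not stated either.

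Melanocytes reach the cochlea from the neural crest and settle in the stria vascularis, the epithelium of the lateral wall that fills the cochlear duct with potassium-rich endolymph. There they become the intermediate cells, which carry the potassium channel that sets up the endocochlear potential. The receptors KIT and EDNRB guide the survival and migration of melanoblasts, MITF is the transcription factor that specifies them, and the remaining genes encode enzymes that make melanin and proteins of the melanosome, the organelle that holds it. Mice without working Kit, Ednrb or Mitf can be both white-spotted and deaf.

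Of the 5 pigment genes, 4 were lower in N-myc ko cochleae, and the receptors did not pass the test. Of the 8 genes, 4 fell (Dct, Pmel, Tyr and Tyrp1), 1 rose (Mlana) and 3 were not called (Mitf, Kit and Ednrb). The threshold for a call was a limma adjusted p no higher than 0.14, the false discovery rate named in the study's design text. Over all 23879 genes 34.7% were called at that limit, 19.8% as lower and 14.9% as higher. The median log2 change of the 8 genes was -0.51, and that of all genes was -0.030. Changes of at least 2-fold were rarer, with 0.369% of all genes called lower by that much, and Dct and Pmel were among them. The groups did not overlap for 6 of the 8 genes, with the N-myc ko arrays below the wild-type arrays in 5 (36.2% of all genes) and above them in 1 (28.8% of all genes). After quantile normalisation, which removes differences in the spread of values between arrays, 5 of the 8 genes were called lower, beside 10.1% of all genes. At an adjusted p under 0.05, which 8.2% of all genes passed as lower and 6.76% as higher, the 4 falls were still called and the rise of Mlana was not. In whole tissue, fewer cells of a type and less RNA per cell cannot be told apart.

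**Figure D1:**
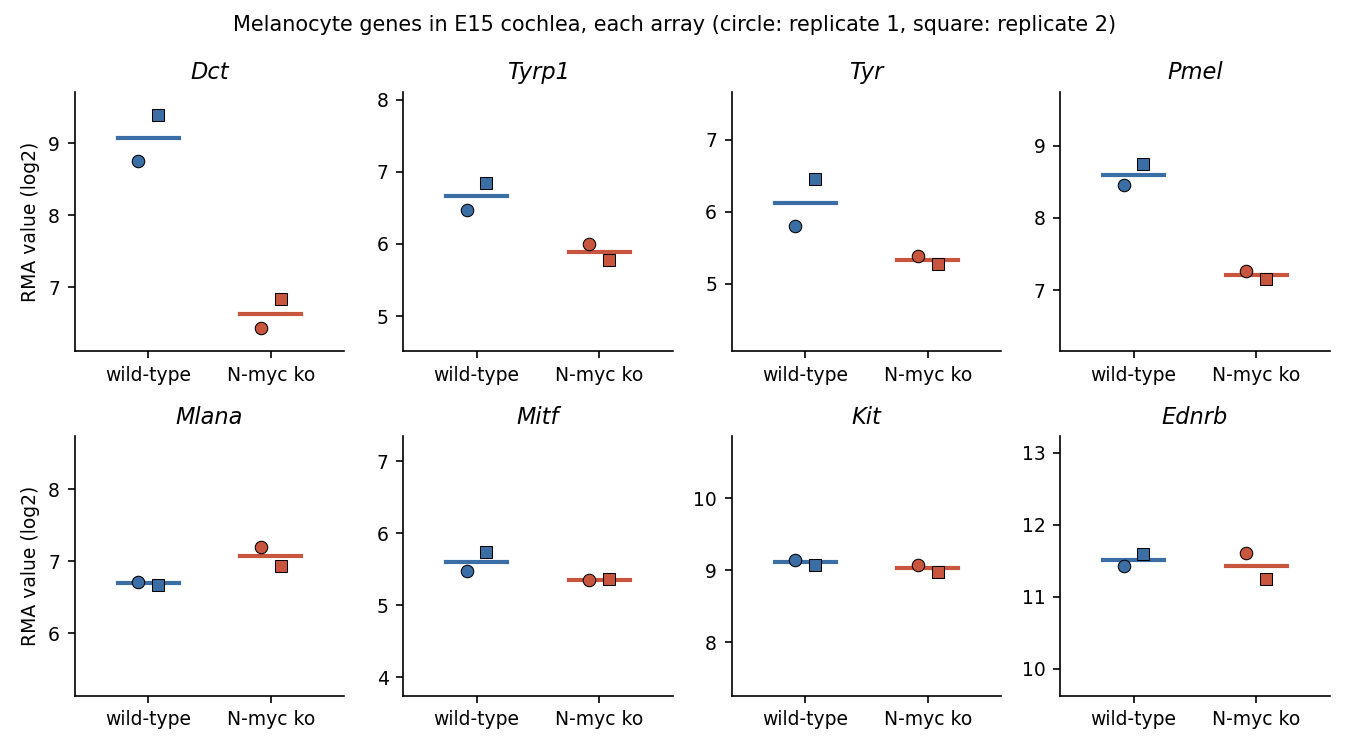
Authors' RMA values on the log2 scale (vertical axis, each panel spanning the same log2 width) of the 8 genes on each wild-type array (blue) and each N-myc ko array (red); circles are replicate 1, squares are replicate 2 and the bar is the mean of 2 arrays. The groups stand apart for Dct, Tyrp1, Tyr and Pmel and overlap for Kit and Ednrb.

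The 3 enzymes of melanin synthesis all fell. Dct (ENSMUSG00000022129) encodes dopachrome tautomerase, which acts late in the path to eumelanin and is expressed early in melanoblasts. Its log2 value was 8.76 and 9.39 in wild-type and 6.43 and 6.84 in N-myc ko cochleae. Both N-myc ko arrays were therefore low and the groups were 1.92 apart at their nearest values. The mean went from 9.07 ± 0.45 to 6.64 ± 0.29 (SD, n = 2 each), a log2 change of -2.44 (SE 0.23, limma adjusted p = 0.0085). That is 5.42-fold lower, with a 95% interval from 3.69-fold to 7.98-fold. Ordered from the widest fall, Dct stood at place 4 of the 23879 genes.

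Tyr (ENSMUSG00000004651) encodes tyrosinase, the enzyme that starts melanin synthesis and limits its rate. Its log2 value was 5.80 and 6.45 in wild-type and 5.38 and 5.27 in N-myc ko cochleae. Both N-myc ko arrays lay below both wild-type arrays, and wild-type replicate 2 was the highest of the 4. The log2 change was -0.80 (SE 0.21, limma adjusted p = 0.0496), or 1.74-fold lower with a 95% interval from 1.23-fold to 2.46-fold. Without wild-type replicate 2 the fall was smaller, at -0.47. Tyr was dim, between the 15.6 percentile of an N-myc ko array and the 35.3 percentile of a wild-type array. How far it stood above the array's background was not tested, and RMA values understate the fold change of dim genes.

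Tyrp1 (ENSMUSG00000005994) encodes tyrosinase-related protein, a melanosomal partner of tyrosinase. Its log2 value was 6.48 and 6.85 in wild-type and 6.004 and 5.77 in N-myc ko cochleae, so that the groups did not overlap. The log2 change was -0.77 (SE 0.15, limma adjusted p = 0.029), or 1.71-fold lower with a 95% interval from 1.33-fold to 2.20-fold. On the log2 scale the intervals of Tyr and Tyrp1 overlapped from -1.14 to -0.41, and the interval of Dct, from -3.00 to -1.88, lay below both. Like Tyr, Tyrp1 was dim in N-myc ko cochleae, at the 24.9 and 22.6 percentile of the arrays. The intervals therefore do not settle how the true sizes of the falls compare.

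The stretches of DNA upstream of these enzymes are shown because MITF is known to bind there, at the M-box, an E-box extended by a T. RefSeq promoter windows (build GRCm38.p6, from 250 bases before to 50 bases after a transcript's start, in the reference strain and not in the strains studied) were searched on both strands for TCATGTG, the M-box core. The windows of Tyr (chr7:87493463-87493762, minus strand), Tyrp1 (chr4:80833963-80834262, plus strand) and Dct (chr14:118052197-118052496, minus strand) each hold it, in capitals below, read 5′ to 3′ along the gene.
Tyr: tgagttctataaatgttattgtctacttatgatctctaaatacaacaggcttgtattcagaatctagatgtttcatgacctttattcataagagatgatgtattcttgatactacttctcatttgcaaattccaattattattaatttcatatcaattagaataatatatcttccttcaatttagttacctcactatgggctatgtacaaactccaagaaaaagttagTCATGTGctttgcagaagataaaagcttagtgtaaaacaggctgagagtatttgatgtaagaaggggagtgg
Tyrp1: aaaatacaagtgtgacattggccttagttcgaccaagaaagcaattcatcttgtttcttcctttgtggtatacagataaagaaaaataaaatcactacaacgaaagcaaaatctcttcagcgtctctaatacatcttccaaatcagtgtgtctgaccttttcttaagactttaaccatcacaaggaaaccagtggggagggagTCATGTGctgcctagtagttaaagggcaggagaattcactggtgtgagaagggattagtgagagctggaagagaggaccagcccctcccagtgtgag
Dct: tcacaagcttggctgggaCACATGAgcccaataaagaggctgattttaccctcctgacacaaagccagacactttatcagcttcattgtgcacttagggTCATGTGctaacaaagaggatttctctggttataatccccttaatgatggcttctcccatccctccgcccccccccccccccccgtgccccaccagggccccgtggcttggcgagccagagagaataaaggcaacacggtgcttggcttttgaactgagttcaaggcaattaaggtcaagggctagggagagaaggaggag
The core starts 22 bases before the start in Tyr and 47 bases before it in Tyrp1. In Dct it starts 151 bases before the start, and a second match, on the opposite strand and so written CACATGA, lies at 232 bases before it. With its flanks the match reads AGTCATGTGCT in Tyr and in Tyrp1 and GGTCATGTGCT at the nearer match of Dct. The farther match of Dct has other flanks and reads GACACATGAGC along the gene. Of 32851 RefSeq promoter windows of this length, 3.77% hold TCATGTG. That share is background and no test, since the motif was searched because MITF is known to bind at these genes. The shorter E-box CATGTG, which lies inside the M-box core, is in 14.2% of windows. The E-box CACGTG, the form that MYC proteins prefer, is in 7.15% of windows and in none of those of Tyr, Tyrp1 or Dct. The windows read for Mitf (3 transcript starts), Kit (2) and Ednrb (1) hold none of the 3 motifs. The set of promoter windows at hand held none for Pmel or Mlana, so these genes were not searched. A match of letters is a description of the window and shows no binding, and the lack of a match shows no lack of binding. Sequence outside the windows was not searched.

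The 2 genes for melanosome proteins were called in opposite directions on the deposited values. Pmel (ENSMUSG00000025359) encodes the protein that forms the fibrils on which melanin is laid down. Its log2 value was 8.46 and 8.75 in wild-type and 7.27 and 7.15 in N-myc ko cochleae, with 1.19 between the nearest arrays of the groups. Its mean went from 8.60 ± 0.21 to 7.21 ± 0.083 (SD, n = 2 each), a log2 change of -1.40 (SE 0.13, limma adjusted p = 0.0074). That is 2.63-fold lower, with a 95% interval from 2.13-fold to 3.25-fold, and place 29 of 23879 from the widest fall.

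Mlana (ENSMUSG00000024806) encodes a small membrane protein of melanosomes that is known to bind the product of Pmel. It was 6.71 and 6.67 in wild-type and 7.20 and 6.94 in N-myc ko cochleae. Both N-myc ko arrays were the higher, by 0.22 at the nearest values. The log2 change was 0.37 (SE 0.11, limma adjusted p = 0.074), or 1.29-fold higher with a 95% interval from 1.07-fold to 1.57-fold. This call was lost after quantile normalisation (0.28, limma adjusted p = 0.169) and without wild-type replicate 1 (0.39, adjusted p = 0.166), wild-type replicate 2 (0.35, adjusted p = 0.203) or N-myc ko replicate 1 (0.24, adjusted p = 0.299). Within each array, the log2 value of Pmel minus that of Mlana was 1.74 and 2.07 in wild-type and 0.069 and 0.21 in N-myc ko cochleae. A constant shift of an array cancels in this difference. It changed by -1.77 in N-myc ko cochleae, and by -1.59 after quantile normalisation (exact two-sided permutation test, p = 0.333 on the deposited values, the smallest that 2 arrays against 2 can give).

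Mitf (ENSMUSG00000035158) itself was not called. Its log2 value was 5.47 and 5.74 in wild-type and 5.36 on each N-myc ko array. The N-myc ko arrays were the lower, but by 0.11 at the nearest values. The log2 change was -0.24 (SE 0.12, 95% interval -0.52 to 0.035, limma adjusted p = 0.186). Mitf was dim, at the 15.9 to 24.1 percentile of its arrays, and which cells of the cochlea gave its signal was not tested. It was called lower after quantile normalisation (-0.41, limma adjusted p = 0.083), after cyclic loess normalisation (-0.37, adjusted p = 0.093) and without wild-type replicate 1 (-0.38, adjusted p = 0.12). Without wild-type replicate 2 it was -0.11 (adjusted p = 0.592).

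The receptors showed small differences that the test did not call. Kit (ENSMUSG00000005672) encodes the receptor for stem cell factor. Its log2 value was 9.15 and 9.08 in wild-type and 9.08 and 8.97 in N-myc ko cochleae, and the groups overlapped. The log2 change was -0.088 (SE 0.095, limma adjusted p = 0.544), with a 95% interval from -0.32 to 0.14. Its sign turned after quantile normalisation (0.11) and after cyclic loess normalisation (0.12).

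Ednrb (ENSMUSG00000022122) encodes the endothelin receptor type B, which binds endothelin 3 on melanoblasts. It was 11.43 and 11.60 in wild-type and 11.61 and 11.25 in N-myc ko cochleae, where the N-myc ko arrays held both the highest and the lowest value. The log2 change was -0.085 (SE 0.14, limma adjusted p = 0.701), with a 95% interval from -0.43 to 0.26, and it turned to 0.094 without N-myc ko replicate 2. Both receptors are also known from cells other than melanocytes, Kit in mast cells and blood progenitors and Ednrb in glia and vessels, so their signal in whole cochlea need not come from melanocytes alone. Markers of those cells were not analysed here.

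**Figure D2:**
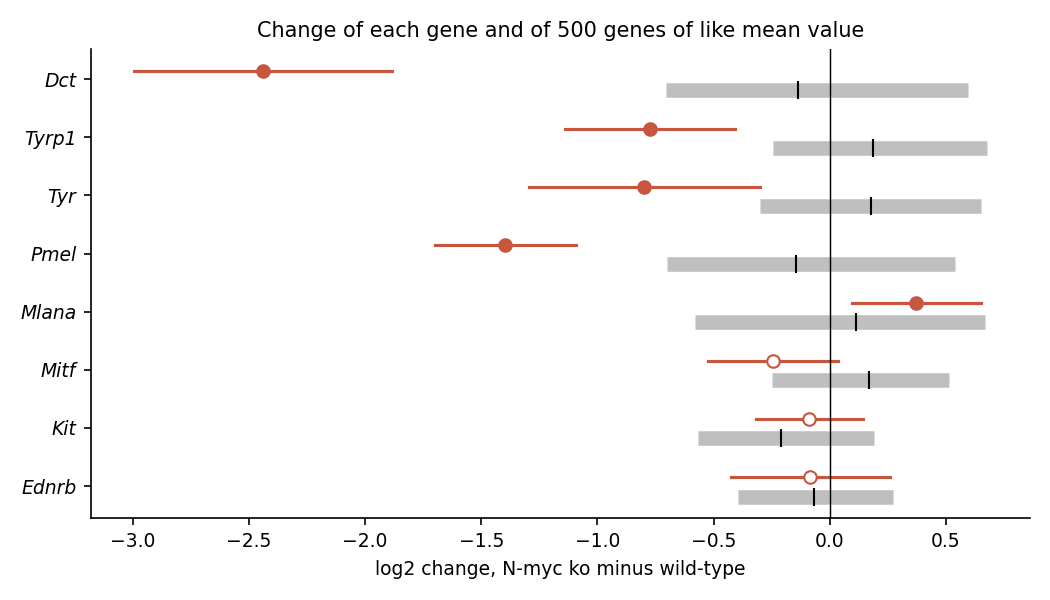
Log2 change, N-myc ko minus wild-type (horizontal axis), of each gene with its 95% interval from limma (red; filled if called), beside the central 90% (grey bar) and the median (black tick) of the changes of the 500 genes nearest in mean log2 value. Dct, Tyrp1, Tyr and Pmel lie below their grey bars, Mlana, Kit and Ednrb lie inside theirs, and Mitf lies at the lower edge of its bar.

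The spread of values was narrower on the N-myc ko arrays. Lower and upper quartiles were 6.007 and 8.941 on N-myc ko replicate 1 and 5.93 and 9.004 on replicate 2. In wild-type they were 5.763 and 9.145 on replicate 1 and 5.791 and 9.18 on replicate 2. After quantile normalisation, which removes this difference, 4816 of 23879 genes were called, beside 8280 as deposited. The falls of Dct, Pmel, Tyr and Tyrp1 were still called, Mitf was called lower and Mlana was not called. Whether the spread itself moved those calls was not tested. Changes over the whole table differed with brightness, though not as a steady trend. The median log2 change was 0.026 for genes with a mean value up to 5, 0.16 between 5 and 6 and again between 6 and 7, and -0.070 between 7 and 8. It was -0.21 between 8 and 9, -0.19 between 9 and 10, -0.12 between 10 and 11 and -0.053 above 11. Each gene was therefore set beside the 500 genes nearest to it in mean log2 value, as a description with no test. For Dct the neighbours had a median change of -0.14 and a central 90% from -0.70 to 0.60, and 0 of 500 had a lower change than Dct. For Pmel the median was -0.14, the central 90% ran from -0.70 to 0.54, and 2 of 500 were lower. The dim enzymes fell against a background that leaned upward. The neighbours of Tyr had a median of 0.18 (central 90% -0.30 to 0.65) and 5 of 500 were lower, and those of Tyrp1 had a median of 0.18 (-0.24 to 0.68) and 1 of 500 was lower.

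Among the genes with smaller changes, Mitf lay near the lower edge of its neighbours, whose median was 0.17 (central 90% -0.25 to 0.51), with 26 of 500 lower than it. It was inside the central 90% of 500 neighbours but below that of 200 (lower bound -0.2407, against its change of -0.2442) and of 1000 (lower bound -0.22). The rise of Mlana lay inside the range of its neighbours (median 0.11, central 90% -0.58 to 0.67), of which 108 of 500 were higher. For Kit the neighbours had a median of -0.21 (central 90% -0.57 to 0.19), and 355 of 500 had a lower change. For Ednrb the median was -0.067 (-0.39 to 0.27), and 233 of 500 were lower.

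**Figure D3:**
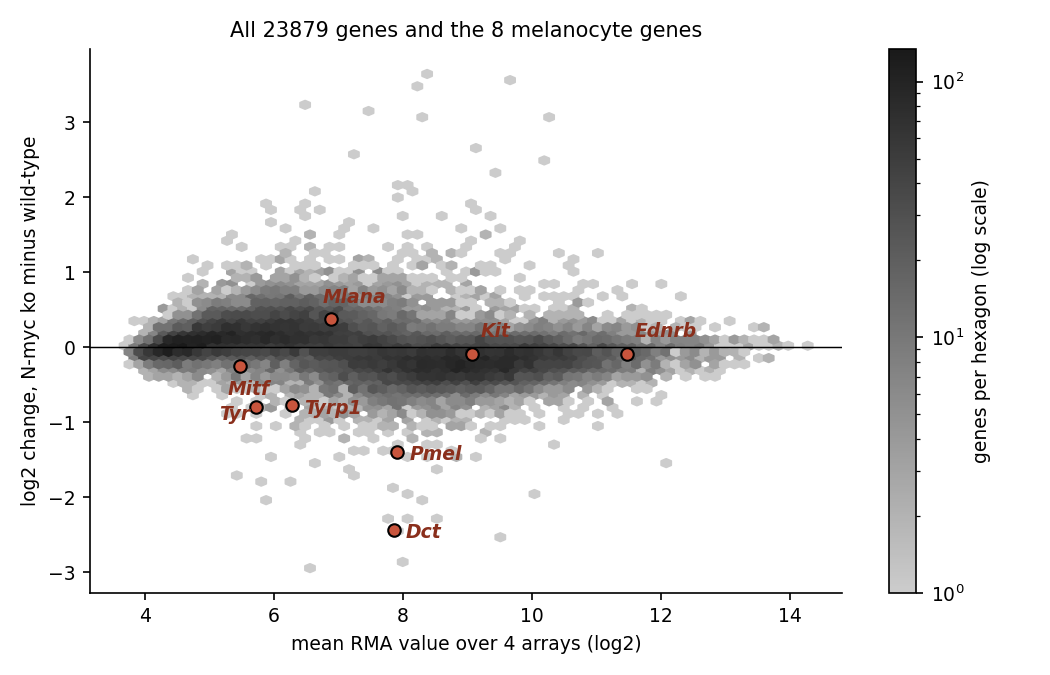
Log2 change, N-myc ko minus wild-type (vertical axis), against the mean RMA value over 4 arrays (log2, horizontal axis) for all 23879 genes, with darker hexagons for more genes on a log scale and the 8 melanocyte genes as red points. Dct and Pmel stand below the bulk of genes at mean values of 7.86 and 7.90, Tyr and Tyrp1 at its lower edge, and Kit and Ednrb inside it.

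Each pigment gene was also set against Kit within each array, where a constant shift of the array cancels but a difference in the spread of values does not. The log2 value of Dct minus that of Kit was -0.39 and 0.31 in wild-type and -2.65 and -2.13 in N-myc ko cochleae, a mean of -0.039 ± 0.50 against -2.39 ± 0.37 (SD, n = 2 each). For Pmel minus Kit it was -0.69 and -0.33 in wild-type and -1.82 and -1.83 in N-myc ko cochleae. For Tyr minus Kit the wild-type values were -3.35 and -2.63 and the N-myc ko values were -3.70 and -3.70. For Tyrp1 minus Kit they were -2.67 and -2.23 against -3.08 and -3.20. For Mlana minus Kit, in the other direction, they were -2.43 and -2.40 against -1.88 and -2.03. These signs follow from the changes of the genes themselves, since Kit differed little between the groups. The difference between the groups depended on the scaling for some of the genes. It went from -0.71 as deposited to -1.08 after quantile normalisation for Tyr, from -0.69 to -1.04 for Tyrp1 and from 0.46 to 0.18 for Mlana, and from -2.35 to -2.54 for Dct and from -1.31 to -1.41 for Pmel. The exact two-sided permutation test on the deposited values gave p = 0.333 for each, the smallest possible with 2 arrays against 2.

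The pigment genes also varied between the wild-type replicates. Replicate 2 was higher than replicate 1 by 0.65 for Tyr, 0.63 for Dct, 0.37 for Tyrp1, 0.29 for Pmel and 0.27 for Mitf. A wider gap between the wild-type replicates was seen for 1.00% of all genes beyond that of Tyr, 1.13% beyond that of Dct and 6.41% beyond that of Tyrp1. The gaps of Kit (-0.069), Ednrb (0.16) and Mlana (-0.039) were smaller. Between the N-myc ko replicates the pigment genes did not share a direction. Replicate 2 minus replicate 1 was 0.41 for Dct, -0.11 for Tyr, -0.23 for Tyrp1 and -0.12 for Pmel. The wild-type gap was in each of the 4 genes smaller than the change between the groups, and without wild-type replicate 2 the changes were -2.12 for Dct, -1.25 for Pmel, -0.59 for Tyrp1 and -0.47 for Tyr, all still called. The labels call the arrays biological replicates without saying that they came from separate embryos. The p-values therefore reflect the spread among these arrays, which need not be the spread between embryos.

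**Figure D4:**
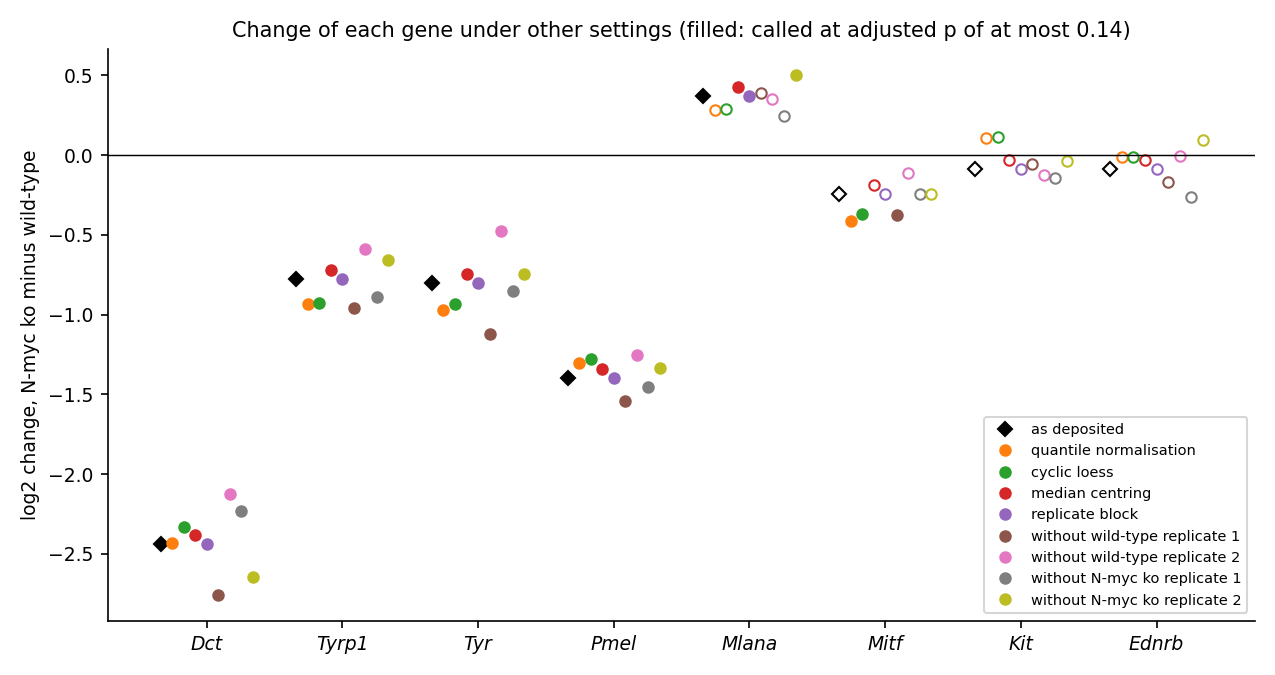
Log2 change, N-myc ko minus wild-type (vertical axis), of each gene as deposited (black diamond), after further normalisation, with the replicate number as a block and with each array left out in turn; filled symbols were called. Dct stayed between -2.76 and -2.12 and Pmel between -1.54 and -1.25, while Kit and Ednrb scattered about 0 and were called under none of the settings shown.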

How the data were processed

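The deposited table gives log2 values. Per the design text of the series and the labels' list of tools, the authors made them with RMA and the affy package, with background correction, normalisation within and between arrays and a single value per gene. No version, array design or genome build is named in the sources. The table holds Ensembl IDs without names. The symbols of the 8 genes came with the list of members, all 8 symbols are in the RefSeq gene table, and its Ensembl column matched 0 of the 23879 IDs. The N-myc transcript and lists of other cell types kept by symbol were therefore not analysed here.

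A two-sided limma model (version 3.58.1, R 4.3.3, eBayes) was fitted to all rows and 4 arrays, with 2 residual degrees of freedom and 4.33 borrowed from other genes, and Benjamini-Hochberg adjustment over all rows. The authors' significance analysis of microarrays was not rerun. The number of arrays limits the precision. All 8 genes are named by rule, and genes and lists were chosen with earlier results of these data known. Same-numbered arrays share no stated origin (correlation of deviations 0.12). Alternatives were a stricter limit, other normalisations and variance models, brighter genes alone, a replicate block, left-out arrays, and 200 or 1000 neighbours.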

Additional observations from a re-analysis of the deposited data

How the results depend on the processing

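The falls of Dct, Pmel, Tyr and Tyrp1 kept their direction and call under each setting that tested them, with limma adjusted p up to 0.022, 0.029, 0.131 and 0.084. Of the 8 genes, 5 were called, and 5 with the replicate block. Among genes above the median brightness, where only 4 of the 8 were tested, 2 were called, 2 lower and 0 higher. Of all 11939 genes tested there, 4757 were called, 4065 lower and 692 higher. The 1 rise, of Mlana, became 0 with the adjusted p limit of 0.05, and 0 with either quantile or cyclic loess normalisation (adjusted p = 0.169 and 0.15). Without 1 array, 4 to 5 genes were called, 4 to 5 lower and 0 to 1 higher. Kit had a change of 0.11 with quantile and 0.12 with cyclic loess normalisation, both above 0, and Ednrb ranged from -0.26 to 0.094 without 1 array.

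Over all genes there were 8280 calls as deposited, 3572 at 0.05, 4816 with quantile normalisation, 4962 with cyclic loess and 8835 with the replicate block. For the brighter genes alone, where only 11939 were tested, there were 4757. Lower calls numbered 4719 as deposited, 1958 at 0.05, 2414 with quantile normalisation and 2316 with cyclic loess. They numbered 4065 for the brighter genes alone and 3566 with median centring. Higher calls numbered 3561 as deposited, 1614 at 0.05, 692 for the brighter genes alone and 4687 with median centring. Without 1 array these counts ranged from 3151 to 6559, from 1715 to 3515 and from 1436 to 3044, where a lone array is assumed to vary like the other group. Why the remaining counts shifted was not tested; the cause was not tested for Mlana either. With 200 or 1000 neighbours no gene's distance from their median moved beyond its replicate spread. Mitf, inside the central 90% of 500 neighbours, was below it with 200 and 1000. Signal over background was not measured.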
